A study of Mus musculus with 6 samples.

Results

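Serpins are protease inhibitors that work as suicide substrates: the target protease cleaves an exposed reactive centre loop, and the serpin changes shape and traps the protease. Tissue-type plasminogen activator (Plat) and urokinase (Plau) are serine proteases that cut plasminogen to plasmin, which dissolves fibrin and can activate other matrix proteases. Urokinase acts largely on cells that carry its receptor (Plaur), and serpins such as protease nexin-1 (Serpine2) inhibit both activators.

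The genes described are 5 serpins (Serpina3c, Serpina3g, Serpina3n, Serpinb6a and Serpine2), the activators Plat and Plau, and the urokinase receptor gene Plaur, 8 of the 43430 genes in the deposited count table. They were chosen by name, by their function and with the measured difference between the groups compared here already known. All differences between the groups in these 8 genes are therefore given as a description. Where the fit over all genes called one of them, that is stated as a fact about the fit and supports nothing.

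Male mice of the strain C57BL/6J, 9 to 11 weeks old, gave the RNA, which was taken from lung cells that flow cytometry had sorted for PDGFRA, a growth factor receptor carried by most lung fibroblasts. In the room air group 9 mice were kept in room air, and in the hypercapnia group 9 mice breathed 10% CO2 for 10 days. Cells of 3 mice were pooled for each library, which gave 3 libraries per group. The columns of the table name the group but carry numbers that match no sample title, so they were assigned to groups only and are called M1, M2 and M3 (room air) and M4, M5 and M6 (hypercapnia).

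Library totals ran from 8999780 to 10198336 counts. Levels are given in CPM, the unit in which a count is scaled to its library total, here adjusted by TMM factors. Before that adjustment 3 counts corresponded to 0.294 to 0.333 CPM. Fibroblast marker genes (Pdgfra, Col1a1, Col1a2 and Col3a1) summed to between 20752 and 22461 CPM in room air, and between 19816 and 22630 CPM in hypercapnia. Transcripts of other cell types were present beside them. The leukocyte marker Ptprc had 2 counts in M1 and 0 elsewhere and the epithelial marker Epcam had between 0 and 19 counts, but the myeloid marker Lyz2 reached 58.7 CPM. Airway epithelial markers summed to between 146 and 555 CPM in a library, led by Scgb1a1, and alveolar type 2 markers to between 118 and 354 CPM. All 18 endothelial markers were positive in log2 fold change (median 0.88). None passed the threshold of an adjusted p of 0.05 in edgeR, where 11 had an unadjusted p below 0.05. DESeq2 called 2 of them and limma-voom none. Over all 13005 tested genes 6697 were positive, and 1567 had an unadjusted p below 0.05 in edgeR. DESeq2 called 435 genes and limma-voom 196. Their sum ran from 833 CPM (M3) to 3004 CPM in room air, and from 2933 to 4782 CPM in hypercapnia. Of the 9 alveolar fibroblast markers 5 were called lower and none higher (median log2 fold change -0.57), their sum being 22065 to 22200 CPM in room air against 16474 to 18494 CPM in hypercapnia. Of the 11 adventitial fibroblast markers 1 was called higher (median 0.53). Over all tested genes 0.700% were called lower and 0.523% higher. In bulk RNA, fewer cells of a type and less RNA per cell cannot be told apart. The part of these marker shifts in the differences below was not tested. Values with the endothelial level as a covariate are given as a description only. That level came from the same counts and was itself mostly higher in hypercapnia, so such a fit cannot separate it from the group.

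The sequences of the Serpina3 genes are shown first because these genes of 1 cluster resemble each other closely in sequence while the size of their difference between the groups was not alike. Human SERPINA3, alpha-1-antichymotrypsin, has a whole cluster of counterparts in the mouse, and the mouse genes differ most in the reactive centre loop that the target protease cuts. The coding stretch of that loop, taken from the GENCODE M21 transcripts, runs from the codons of the conserved hinge Gly-Thr-Glu to those of a conserved Phe-x-Arg-x-Phe at its far end. Capitals mark the bases of Serpina3c and Serpina3g that differ from Serpina3n, or stand opposite a gap in it, in a pairwise alignment.
Serpina3n: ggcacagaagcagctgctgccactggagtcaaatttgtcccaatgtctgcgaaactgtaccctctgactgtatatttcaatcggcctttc
Serpina3c: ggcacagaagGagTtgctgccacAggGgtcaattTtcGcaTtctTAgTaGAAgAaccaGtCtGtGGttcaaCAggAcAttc
Serpina3g: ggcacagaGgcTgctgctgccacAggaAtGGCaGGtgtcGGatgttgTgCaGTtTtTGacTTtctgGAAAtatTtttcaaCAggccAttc
Serpina3n and Serpina3g had 30 codons in this stretch and Serpina3c had 27. Serpina3c matched Serpina3n at 71.6% of 81 aligned bases with 9 gap bases, and Serpina3g matched it at 70.5% of 88 aligned bases with 4 gap bases.

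The stretch before the gene start was much more alike between Serpina3n and Serpina3c, the only pair compared there. RefSeq promoters (GRCm38.p6) were found for 6 of the 8 genes, and those of Serpina3n and Serpina3c are shown because the pair was so similar there and so different in its change. The 250 bases upstream of the start are given 5′ to 3′ on each gene's own strand, Serpina3n on the plus strand at chr12:104406458-104406707 and Serpina3c on the minus strand at chr12:104153873-104154122. Capitals mark the Serpina3c bases that differ from Serpina3n.
Serpina3n: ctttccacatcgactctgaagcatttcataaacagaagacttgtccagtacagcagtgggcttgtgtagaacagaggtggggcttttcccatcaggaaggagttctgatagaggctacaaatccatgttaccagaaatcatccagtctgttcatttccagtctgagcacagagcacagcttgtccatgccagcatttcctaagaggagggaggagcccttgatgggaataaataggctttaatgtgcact
Serpina3c: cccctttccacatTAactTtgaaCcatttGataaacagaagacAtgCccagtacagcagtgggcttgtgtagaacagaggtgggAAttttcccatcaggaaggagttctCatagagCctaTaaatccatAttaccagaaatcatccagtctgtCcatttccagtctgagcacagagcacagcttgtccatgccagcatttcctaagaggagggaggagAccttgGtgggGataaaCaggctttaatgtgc
Over 247 aligned bases the pair differed at 18 positions, without an internal gap, which is 92.7% identity. Reads of such close relatives can be misassigned: 4.25% of all 50-base windows of the Serpina3c transcripts, 6.90% of those of Serpina3n and 15.5% of those of Serpina3g also occurred in another gene. Their counts carry that uncertainty, the Serpina3g counts most.

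Serpina3c (ENSMUSG00000066361, chr12:104146382-104153870 on mm10, minus strand), described in the mouse as a kallikrein-binding protein, was the member with the largest difference between the groups. It stood at 86.8, 86.1 and 99.0 CPM in room air against at 30.4, 25.6 and 39.1 CPM in hypercapnia. All 3 hypercapnia libraries lay below all 3 room air libraries, with a wide gap. The mean was 90.6 ± 7.26 CPM (SD, n = 3) in room air against 31.7 ± 6.84 CPM (SD, n = 3) in hypercapnia, 2.86-fold lower. The log2 fold change was -1.51 ± 0.16 (SE), and it lay between -1.70 and -1.34 under 14 other processing settings, including each library left out in turn. Over all 13005 genes tested, edgeR's quasi-likelihood test called 159 genes (1.22%), 91 lower (0.700%) and 68 higher (0.523%); of the 8 genes described it called Serpina3c alone, as lower. Because these values chose the gene, nothing is read from that count.

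Serpina3n (ENSMUSG00000021091, chr12:104406729-104414329, plus strand), a secreted inhibitor of neutrophil elastase, cathepsin G and granzyme B, was the most abundant of the 8 genes. Its level was 669, 613 and 624 CPM in room air against 460, 514 and 446 CPM in hypercapnia. The groups did not overlap, and the spread within each was small, with a coefficient of variation of 4.69% in room air and 7.60% in hypercapnia. The log2 fold change was -0.42 ± 0.11 (SE), and it lay between -0.49 and -0.36 under 14 other processing settings.

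Serpina3g (ENSMUSG00000041481, chr12:104236245-104241939, plus strand), known in the mouse as an intracellular inhibitor of cysteine cathepsins, was scarce. It stood at 8.85, 14.6 and 6.90 CPM in room air against at 7.29, 4.43 and 3.09 CPM in hypercapnia. M4 lay above M3, so the groups overlapped. Its log2 fold change was -1.04 ± 0.40, and the spread within groups was wide, at 39.6% and 43.4% of the mean. The value was -0.68 without M2 and -1.62 with the endothelial level as a covariate.

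**Figure D1:**
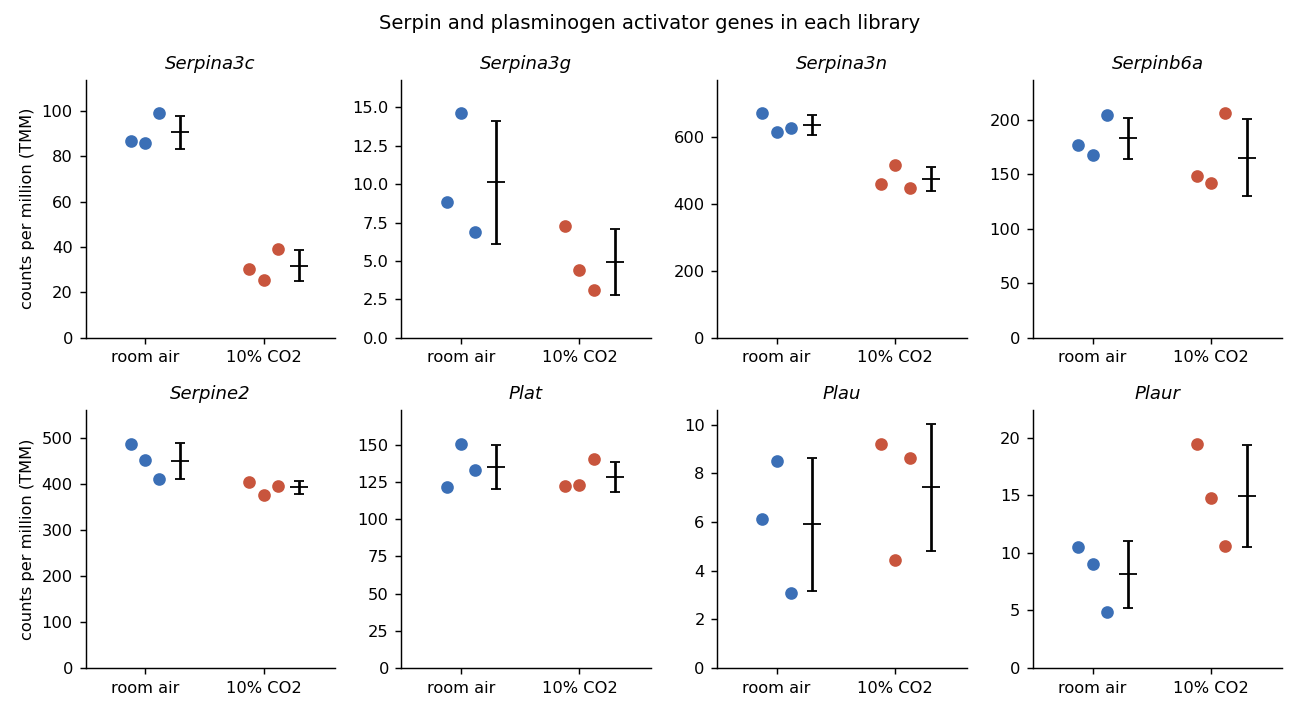
Level of each of the 8 genes in CPM, 1 panel per gene, with a point for each library and a bar for the mean ± SD of the 3 libraries of a group. The Serpina3c points of room air (86.1 to 99.0 CPM) and hypercapnia (25.6 to 39.1 CPM) stand well apart, while those of Plat, Plau, Serpina3g and Serpinb6a overlap.

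The annotated cluster on chromosome 12 holds 14 Serpina3 genes, 7 of which had enough counts to be tested. Of the other 7, Serpina3b had 2 counts in M4 and the rest were at 0 in every library. The pseudogene Serpina3h, next to Serpina3g, had 43, 52 and 92 counts in room air and 18, 30 and 30 counts in hypercapnia, a log2 fold change of -1.37 ± 0.41 without overlap that edgeR did not call (adjusted p = 0.166). As 21.9% of its 50-base windows occur in other Serpina3 genes, its counts are uncertain. Serpina3f (0.12 ± 0.76), Serpina3i (-0.21 ± 0.46) and Serpina3m (-0.15 ± 0.30) had log2 fold changes smaller than their standard errors.

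Within the cluster the balance between its most abundant genes differed between the groups. Serpina3c held 11.0%, 11.7% and 13.2% of the cluster's counts in the room air libraries and 5.91%, 4.56% and 7.76% in the hypercapnia libraries. Serpina3n held 85.0%, 83.5% and 83.0% in room air and 89.4%, 91.7% and 88.7% in hypercapnia. The count of Serpina3n was 7.71, 7.12 and 6.31 times that of Serpina3c in the room air libraries, against 15.1, 20.1 and 11.4 times in the hypercapnia libraries. Both of these genes were lower in hypercapnia, and the less abundant of them was lower by more. The 3 tested genes whose pattern over the 6 libraries was most like that of Serpina3c, by the root mean square difference of centred log2 CPM among 9443 genes of at least 10 CPM, were Colq (0.16), Col5a3 (0.18) and Clmp (0.22). Their log2 fold changes were -1.52, -1.53 and -1.51, beside -1.51 for Serpina3c. The measure takes in the group difference for which Serpina3c was chosen, so nothing is read from the likeness.

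**Figure D2:**
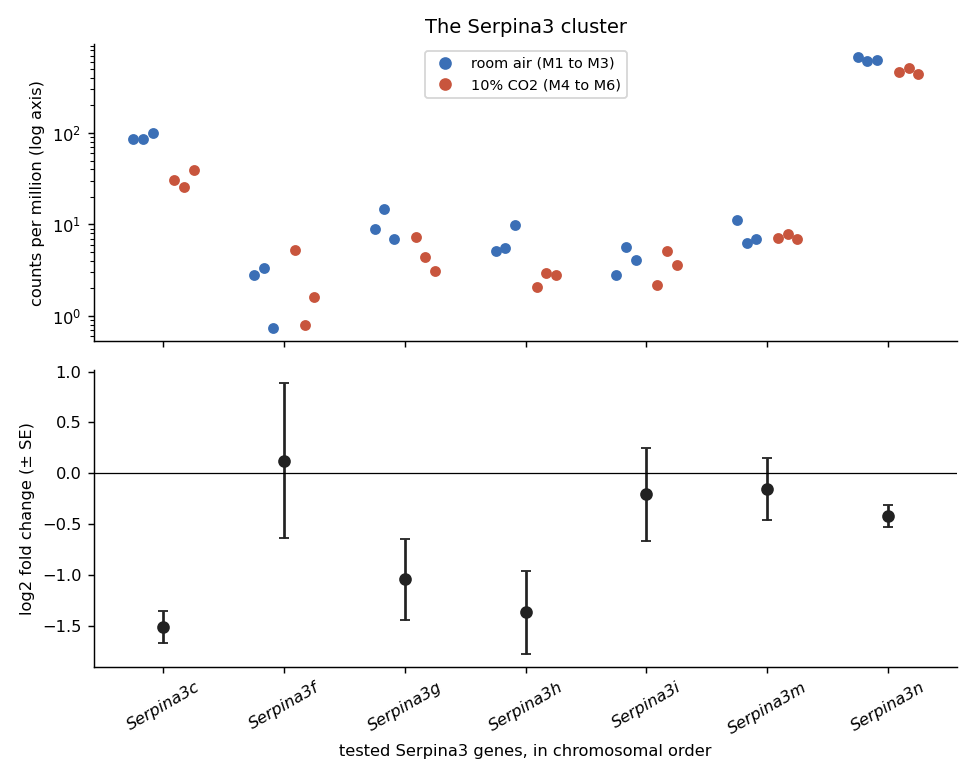
The 7 tested Serpina3 genes in their order along chromosome 12: the level per library in CPM on a log axis, and the log2 fold change of hypercapnia against room air with its standard error. Serpina3n is the most abundant, and Serpina3c, Serpina3g and Serpina3h have the most negative log2 fold changes.

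Serpine2 (ENSMUSG00000026249, chr1:79794197-79861180, minus strand), protease nexin-1, inhibits thrombin as well as the plasminogen activators. It was the next most abundant of the 8 genes, at 488, 451 and 411 CPM in room air against 405, 377 and 396 CPM in hypercapnia. The groups did not overlap, but M3 and M4 lay close together. The log2 fold change was -0.20 ± 0.11. It was -0.13 with library totals in place of TMM factors and -0.31 with the endothelial level as a covariate.

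Serpinb6a (ENSMUSG00000060147, chr13:33917918-34002794, minus strand), an intracellular serpin that inhibits cathepsin G, stood at 177, 168 and 204 CPM in room air against 148, 142 and 206 CPM in hypercapnia. M6 was the highest of all 6 libraries, so the groups overlapped, and the log2 fold change was -0.15 ± 0.15. Without M6 it was -0.34 ± 0.13, without M5 it was -0.05 ± 0.17, and with the endothelial level as a covariate it was 0.07 ± 0.16. Of its exonic bases 29.3% overlap gene models on the opposite strand (1110046J04Rik, Nqo2 and Ripk1), and as the strand setting of the counting is not given in the sources used here, reads of these genes cannot be told apart from its own.

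Plat (ENSMUSG00000031538, chr8:22757727-22782844, plus strand), tissue-type plasminogen activator, stood at 122, 151 and 133 CPM in room air against at 122, 123 and 140 CPM in hypercapnia. The groups overlapped almost entirely, with a log2 fold change of -0.07 ± 0.12. Plau (ENSMUSG00000021822, chr14:20836660-20843385, plus strand), urokinase, was low at 6.13, 8.51 and 3.08 CPM in room air against 9.23, 4.43 and 8.62 CPM in hypercapnia. Its libraries scattered as widely within a group as between groups, and the log2 fold change was 0.33 ± 0.42. The log2 fold change of Plau was 0.01 without M3, 0.69 without M2 and -0.20 ± 0.48 with the endothelial level as a covariate. That of Plat was -0.15 without M1 and 0.01 without M2.

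Plaur (ENSMUSG00000046223, chr7:24462484-24475968, plus strand), the urokinase receptor, had the largest positive difference of the 8 genes. It stood at 10.5, 9.04 and 4.88 CPM in room air against at 19.5, 14.8 and 10.6 CPM in hypercapnia. The groups did not overlap, but the highest room air library and the lowest hypercapnia library nearly touched. The log2 fold change was 0.88 ± 0.33. It ran from 0.61 (without M3) to 1.10 (without M1) with 1 library left out, and with the endothelial level as a covariate it was 0.20 ± 0.32. The mean level of the endothelial markers, as log2 CPM, was 6.73, 6.47 and 4.96 in the room air libraries against 7.40, 7.10 and 6.70 in the hypercapnia libraries. As that level was mostly higher in hypercapnia, it cannot be fully told apart from the group. Its part in the Plaur difference was not tested.

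Among the 8 genes 4 did not overlap between the groups (Serpina3c, Serpina3n, Serpine2 and Plaur), where 18.0% of all tested genes did not. Log2 fold changes were negative for 6 genes and positive for Plau and Plaur. All 8 passed the filter on low counts. Their median log2 fold change was -0.17, beside 0.01 over all tested genes.

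Per transcript length, as RPKM (CPM divided by the transcript length in kilobases), the levels in room air followed the order Serpina3n (308 ± 14.4), Serpine2 (204 ± 17.4), Serpinb6a (111 ± 11.5), Plat (53.6 ± 5.82), Serpina3c (41.0 ± 3.28), Serpina3g (5.61 ± 2.22), Plaur (5.40 ± 1.94) and Plau (2.52 ± 1.16). The ranges of neighbours did not overlap down to Serpina3c, whereas the libraries of Serpina3g and Plaur overlapped, as did those of Plaur and Plau. In hypercapnia Plaur (9.93 ± 2.96) came just below Serpina3c (14.3 ± 3.09), and their libraries overlapped. Plau (3.17 ± 1.12) and Serpina3g (2.74 ± 1.19) overlapped at the foot of the order. Tissue-type activator exceeded urokinase in every library, by a ratio of RPKM between 12.3 and 40.1.

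The wider serpin family had 61 protein-coding genes in the table, of which 33 had a count and 18 were tested. In edgeR 1 rose, 1 fell and 16 did not pass the threshold (1.22% of all tested genes were called), with a median log2 fold change of -0.15 beside 0.01 over all tested genes. Of the 18, 5 belong to the 8 genes described above, Serpina3c among them. The other 13 had a median of -0.11, with 6 positive and 7 negative values and 4 without overlap between the groups, where 18.0% of all tested genes had none. The most abundant serpins were Serping1, the C1 inhibitor of complement and contact activation, and Serpinh1, the collagen chaperone HSP47, which inhibits no protease. Serping1 stood at 2322 ± 184 CPM in room air against 2156 ± 164 CPM in hypercapnia, a log2 fold change of -0.11 ± 0.10. Serpinh1 stood at 1262 ± 109 and 1148 ± 170 CPM, a log2 fold change of -0.14 ± 0.13.

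Of the summed RPKM of the family, Serping1 held between 47.5% and 53.9% and Serpinh1 between 18.5% and 24.2% of a library. Serpina3n held 12.5%, 10.6% and 11.5% in room air and 9.58%, 10.1% and 8.85% in hypercapnia. Serpine2 held between 6.93% and 8.51%. The family summed to 2592, 2796 and 2620 RPKM in room air and to 2326, 2461 and 2444 RPKM in hypercapnia, so the hypercapnia libraries had the lower sums without overlap. That sum includes the 5 serpins described above, which were chosen with their difference known. In CPM the whole family summed to 5161 to 5496 in room air and 4615 to 4831 in hypercapnia. Without these 5 serpins it summed to 3732 to 4164 CPM in room air and 3565 to 3741 CPM in hypercapnia, and the groups overlapped.

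The serpin that rose was Serpini1 (chr3:75557547-75643495, plus strand), neuroserpin, which is known to inhibit tissue-type plasminogen activator. It had 6, 12 and 15 counts in room air and 55, 54 and 61 counts in hypercapnia, or 1.19 ± 0.45 CPM and 5.77 ± 0.48 CPM (SD, n = 3). All hypercapnia libraries lay above all room air libraries, with a log2 fold change of 2.26 ± 0.46 and an adjusted p of 0.0467 in edgeR. The call was lost when any 1 of the 6 libraries was left out (adjusted p = 0.0533 to 0.186 in edgeR), with limma-voom (adjusted p = 0.0613) and with the endothelial covariate (log2 fold change 2.67 ± 0.69, adjusted p = 0.0780 in edgeR). The adjusted p ran from 0.000969 (DESeq2) to 0.186 over the 14 settings.

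**Figure D3:**
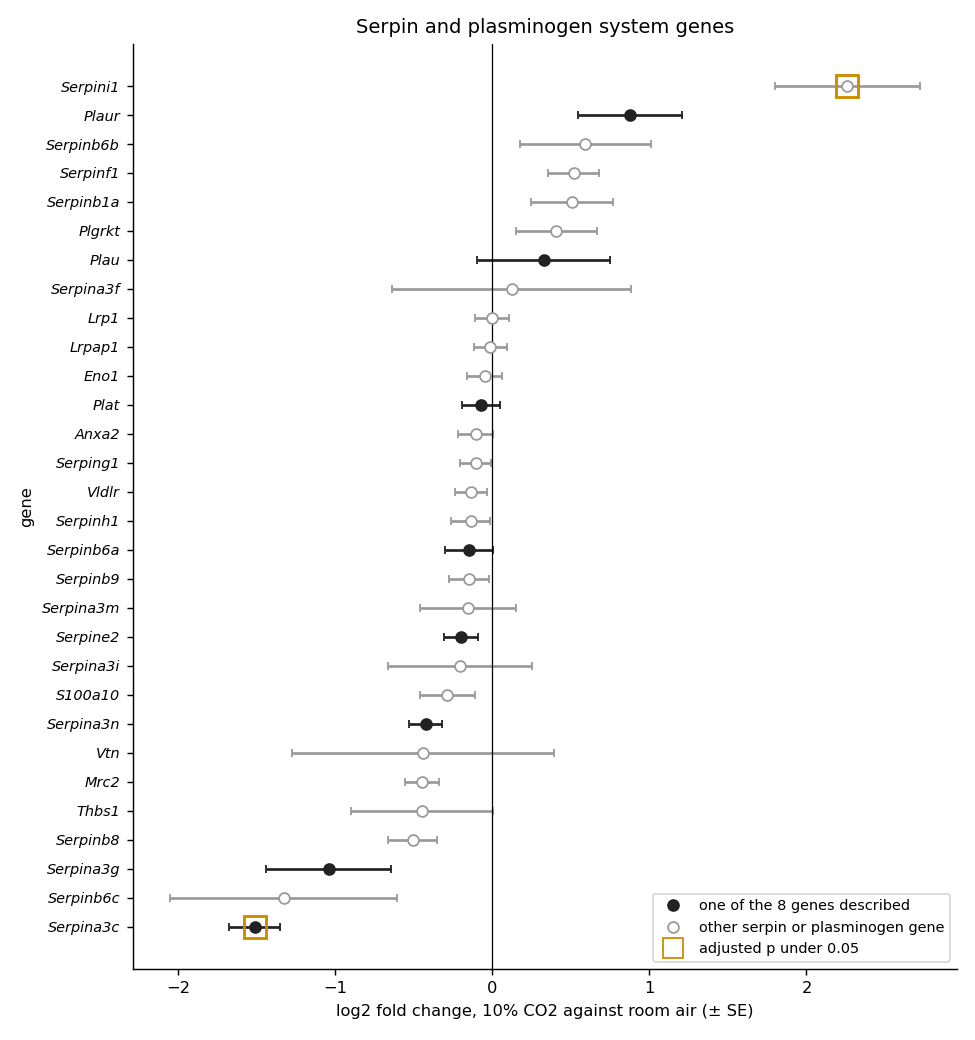
Log2 fold change of hypercapnia against room air with its standard error for tested genes of the serpin family and the plasminogen system, with the genes described filled and genes past the threshold in edgeR ringed by orange squares. Serpina3c lies at -1.51 and Serpini1 at 2.26, and no other gene shown passed the threshold.

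The plasminogen system list held 24 genes, of which 23 were in the table, 19 had a count and 16 were tested. Serpini1 rose, none fell and 15 did not pass the threshold, where 1.22% of all tested genes were called. This was the Serpini1 call already counted among the serpins. The median log2 fold change of the list was -0.06, beside 0.01 over all tested genes. Without the 4 genes already described, 12 were tested, with a median of -0.08, 8 negative and 4 positive values. Plasminogen itself (Plg), the substrate made mainly by the liver, had between 0 and 3 counts in a library, at or under the level that 3 counts allow. Serpinf2, the plasmin inhibitor alpha-2-antiplasmin, had at most 1 count.

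Thrombospondin 1 (Thbs1), a matrix protein that binds plasminogen activators and activates latent TGF-beta, varied widely between libraries of the same group. It stood at 3360, 1928 and 1224 CPM in room air against 2807, 684 and 1274 CPM in hypercapnia, so that M1 and M4 were the highest of their groups. Its log2 fold change was -0.45 ± 0.45 and was not called. It was 0.01 without M1, -0.09 without M5, -0.74 without M3, -1.15 without M4 and -1.25 with the endothelial level as a covariate. Over the 14 settings it was called only without a filter on low counts (adjusted p = 0.00643 in edgeR), with the adjusted p reaching 0.998 in the others.

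The uptake receptors Lrp1 and Mrc2 were abundant. Lrp1, which clears serpin-protease complexes, stood at 5117 ± 503 CPM in room air against 5118 ± 582 CPM in hypercapnia, a log2 fold change of 0.00 ± 0.11. Mrc2, the collagen receptor uPARAP that associates with the urokinase receptor, stood at 1322, 1465 and 1265 CPM in room air against 1076, 977 and 920 CPM in hypercapnia. The groups did not overlap, with a log2 fold change of -0.45 ± 0.11 that edgeR did not call (adjusted p = 0.085). It was past the threshold in 5 of 14 other settings, the adjusted p in edgeR, DESeq2 or limma running from 0.00687 to 0.351.

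**Figure D4:**
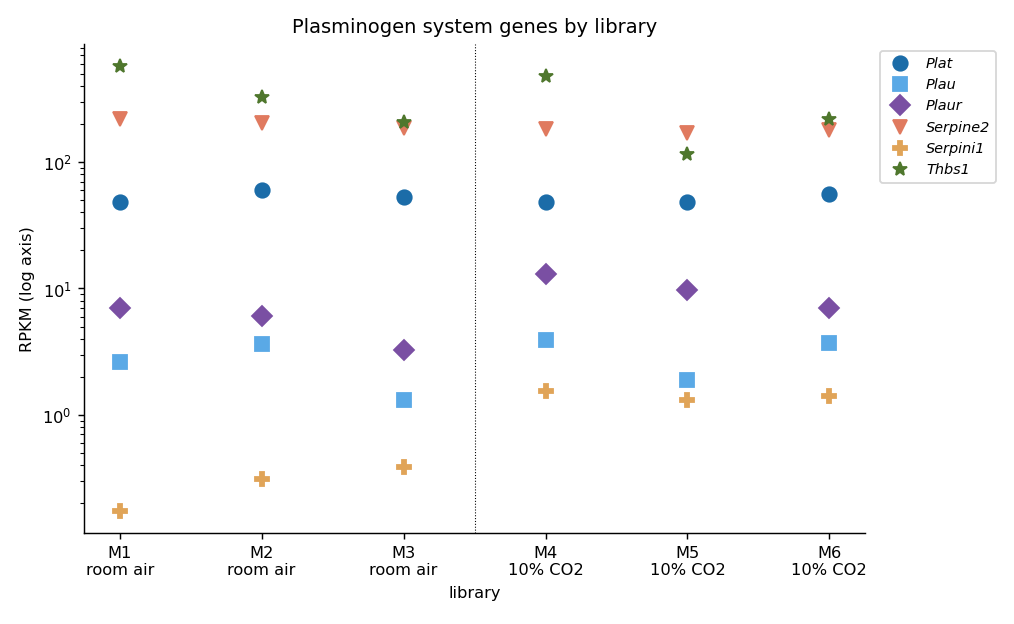
Level in RPKM, on a log axis, of Plat, Plau, Plaur, Serpine2, Serpini1 and Thbs1 in each of the 6 libraries. Thbs1 is high in M1 and M4, Plat and Serpine2 are nearly level across libraries, and Serpini1 is higher in M4, M5 and M6 than in M1, M2 and M3.

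Among 24 thrombin and coagulation genes 16 had a count and 8 were tested. In edgeR none was called, 2 of the 8 had an unadjusted p below 0.05, and none was called by DESeq2 or limma-voom. Over all 13005 tested genes 1567 had an unadjusted p below 0.05 in edgeR. The median log2 fold change was -0.06. The most abundant were thrombomodulin (Thbd), which turns thrombin to the activation of protein C, at 1639 ± 209 CPM in room air against 1332 ± 153 CPM in hypercapnia (log2 fold change -0.30 ± 0.12), the thrombin receptor F2r (-0.12 ± 0.13) and protein S (Pros1, -0.03 ± 0.10).

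Of 26 other serine protease genes 14 were tested, with 12 positive log2 fold changes (6697 of all 13005 tested genes were positive) and a median of 0.30. In edgeR none was called and 5 had an unadjusted p below 0.05, while DESeq2 called 1 lower and limma-voom none. Over all 13005 tested genes 1567 had an unadjusted p below 0.05 in edgeR, and DESeq2 called 225 lower. The mast cell, neutrophil and cytotoxic proteases Gzma, Gzmb, Gzmc, Ctsg, Cma1, Tpsab1 and Tpsb2, several of them textbook targets of Serpina3n and Serpinb6a, were at 0 in every library. The neutrophil proteases Elane and Prtn3 and the mast cell protease Mcpt4, also on the list, each had a count in at least 1 library. Furin, a proprotein convertase, stood at 169 ± 9.22 CPM in room air against 125 ± 14.4 CPM in hypercapnia (log2 fold change -0.43 ± 0.12). The secreted proteases Htra1 (0.29 ± 0.14) and Htra3 (-0.12 ± 0.12) did not pass the threshold.

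Protease inhibitors of other families numbered 20, of which 15 were tested. In edgeR none was called and 4 had an unadjusted p below 0.05, while DESeq2 called 1 higher and limma-voom none. Over all 13005 tested genes 1567 had an unadjusted p below 0.05 in edgeR, and DESeq2 called 210 higher. The median log2 fold change was 0.07. Pi16, a peptidase inhibitor that marks adventitial fibroblasts, stood at 213, 319 and 279 CPM in room air against 292, 536 and 483 CPM in hypercapnia, overlapping through M4 (log2 fold change 0.69 ± 0.22). Cystatin C (Cst3, -0.16 ± 0.14) and the membrane-bound metalloproteinase inhibitor Reck (-0.14 ± 0.11) did not pass the threshold.

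**Figure D5:**
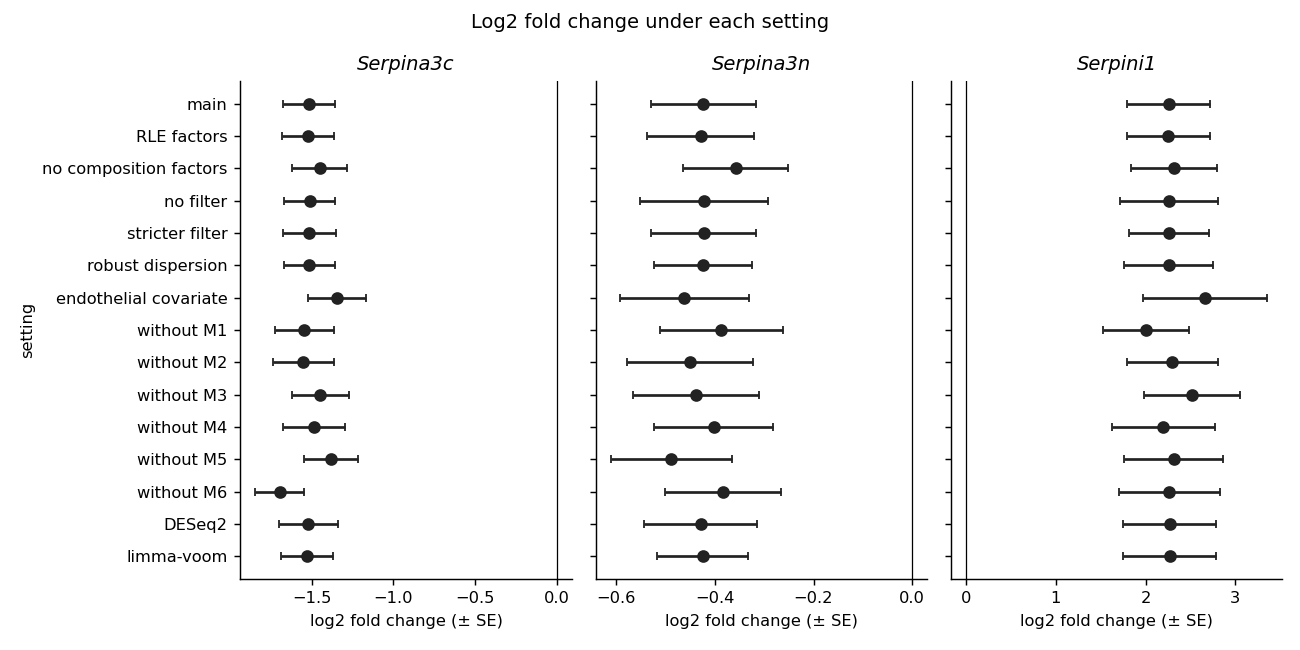
Log2 fold change of hypercapnia against room air for Serpina3c, Serpina3n and Serpini1 under the reported setting and 14 alternatives, with bars for the standard error. Values of Serpina3c lie between -1.70 and -1.34, those of Serpina3n between -0.49 and -0.36, and all those of Serpini1 are positive and reach 2.67. The horizontal scale differs between the panels.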

How the data were processed

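RNA-seq counts per gene came from 6 libraries, 3 per group, each a pool of cells from 3 mice. The authors deposited raw read counts for 43430 Ensembl gene IDs in 1 table, whole numbers without normalization. The reads were handled on the mm10 build with TopHat2 2.1.0, HTSeq, bcl2fastq 2.17.1.14 and FastQC, per the submitters' processing notes. Of the counting, neither annotation release nor strand setting is given in the sources used here. Per the labels, the average depth of aligned reads was lower than the totals of this table.

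Symbols (42546 IDs), positions and lengths came from GENCODE M21. CPM used TMM factors, and RPKM divided CPM by the length of the longest protein-coding transcript. Genes passed edgeR's expression filter with a minimum count of 10 (13005 genes). The test was edgeR's two-sided quasi-likelihood F-test on all 6 libraries (edgeR 4.0.16, R 4.3.3), with group as the only term and Benjamini-Hochberg adjustment over all tested genes, the threshold being 0.05. The method was tested on simulated data. Alternatives changed the normalization, the filter, the dispersion, the tool (DESeq2 1.42.0, limma 3.58.1), a covariate for the endothelial markers, and left out each library. No pair of libraries agreed within sampling noise (chi-square per degree of freedom of at least 12.6 in 15 pairs).

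The 8 genes and all gene lists were chosen with earlier results of these data known. Named genes were the 8 genes, in each list the genes past the threshold and the 3 with the highest mean RPKM, the 3 most like each called member, and checks of the sort. Serpina3f, Serpina3h, Serpina3i, Serpina3m, Plg and Serpinf2 were named in addition, after their values were seen. Some results on single genes are not reported here. P-values measure the spread between pools. The windows of 50 bases were compared over all GENCODE M21 transcripts.

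Marker lists other than those in the results are summarised here by their summed CPM in room air and hypercapnia. Leukocyte markers ran from 11.8 to 56.5 and 25.5 to 61.7 (Adgre1, Marco and Tyrobp at 0), mast cell markers from 31.1 to 94.7 and 102 to 163 (Fcer1a and Ms4a2 at 0), and platelet markers from 3.18 to 5.52 and 4.79 to 6.94 (Gp9 at 0). Alveolar type 2 markers ran from 118 to 277 and 193 to 354, airway markers from 323 to 555 and 146 to 410, mesothelial markers from 228 to 275 and 129 to 210, and smooth muscle and pericyte markers from 298 to 338 and 206 to 286. Of these lists only the mesothelial had a called gene, Upk1b, which was lower and holds most of that sum; the other 4 tested mesothelial markers had positive log2 fold changes (median of all 5, 0.90).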

Additional observations from a re-analysis of the deposited data

How the results depend on the processing

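Without a filter on low counts, edgeR called 756 genes in all, of which 2 were of the 8 genes described, 4 serpins, 3 of the plasminogen system, 1 of coagulation, 4 other serine proteases and 1 other inhibitor. Robust dispersion gave 255 in all, 2 of the 8, 3 serpins and 2 of the plasminogen system. DESeq2 gave 435, with 2 of the 8, 3 serpins, 2 of the plasminogen system, 1 serine protease and 1 inhibitor. In these 3 settings the pair of the 8 was Serpina3c and Serpina3n. The serpin count was 1 with limma-voom and 1 with the endothelial covariate. Leaving out 1 library gave 24 to 148 calls in all (24 without M2, 27 without M5 and 42 without M6), 1 to 1 of the 8 genes, 1 to 1 serpin, 0 to 0 of the plasminogen system and 0 to 1 inhibitor (Pi16 without M4). The causes were not tested. Some log2 fold changes changed sign: Lrp1 with DESeq2 size factors (-0.00425), DESeq2 (-0.00425), limma-voom (-0.00248) and the endothelial covariate (-0.11); Col1a1 (0.027) and Pros1 (0.0303) without composition factors; and Cst3 (0.0732), Pecam1 (-0.13), Plau (-0.20) and Serpinb6a (0.0654) with the endothelial covariate. With 1 library left out, log2 fold changes ran from -1.15 to 0.0103 for Thbs1, -0.119 to 0.0211 for Col1a1, -0.0902 to 0.0802 for Lrp1, -0.147 to 0.0103 for Plat, 0.01 to 0.69 for Plau (no change of sign) and -0.0689 to 0.00789 for Pros1. Pecam1 (0.87) and Plau (0.33) were the values farthest from 0 among those that changed sign with the covariate. Pecam1 is itself among the endothelial markers averaged in that covariate, so nothing is read from its change of sign. No paired analysis was possible because the columns carry no replicate numbers shared between the groups. At this depth 3 counts are 0.294 to 0.333 CPM before TMM factors, which limits Plg, Serpinf2 and the genes at 0.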
